A study of Mus musculus with 35 samples.

Results

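The genes described here are 10 transcription regulators of meiotic and haploid male germ cells: Mybl1, Tcfl5, Brdt, Taf7l, Tbpl1, Crem, Fhl5, Rfx2, Sox30 and Sox5. They were chosen by name, and every probe set annotated to 1 of these symbols alone was taken. That gave 10 probe sets among the 19938 genes of the day 15 array and 26 probe sets among the 18194 genes of the day 25 array. All 10 genes passed the low-signal filter, which asks for at least 2 arrays above an age's 25th percentile of signal (Fhl5 at day 15 did so in 7 of 18 arrays, with its mean below it), and were among the 16710 genes tested at day 15 and the 16305 tested at day 25; a gene with several probe sets was represented by its brightest. Values are RMA log2 intensities, in which 1 unit is a doubling of signal.

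The RNA came from whole testes of male C57BL6 mice, 1 array per mouse. At each age there were 6 groups: Akt1 homozygous PTU-exposed, Akt1 homozygous unexposed, Akt1 heterozygous PTU-exposed, Akt1 heterozygous unexposed, Akt1 wildtype PTU-exposed and Akt1 wildtype unexposed. The design text writes these genotypes as Akt1-/-, Akt1+/- and Akt1+/+; Akt1 is a kinase of insulin and growth factor signalling. PTU (6-N-propylthiouracil) is a goitrogen that blocks thyroid hormone synthesis; neonatal exposure is stated, without a dose. Each group had 3 arrays, except the day 25 homozygous PTU-exposed group with 2, since the authors set 1 further array aside for low quality. Mice were killed at postnatal day 15 (MoGene 1.0 st v1 arrays) or day 25 (Mouse Genome 430 2.0 arrays). The array types differ, so the ages were analysed apart and no level is compared between them.

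In the first wave of spermatogenesis, spermatogonia give rise to spermatocytes that pass through meiosis and then to haploid round spermatids. Each step has its own activators. In mice, Mybl1 protein (A-MYB) switches on genes of pachytene spermatocytes and the precursors of pachytene piRNAs, and Tcfl5 is a helix-loop-helix factor of the same cells. Brdt is the testis member of the BET bromodomain proteins, which read acetylated histones. Taf7l and Tbpl1 are germ cell relatives of the general factors Taf7 and Tbp. Crem, with its LIM-domain coactivator Fhl5 (ACT), drives genes of round spermatids such as the protamines. Rfx2 binds the X-box of cilium and sperm tail genes, Sox30 is needed for the haploid programme, and the short form of Sox5 is abundant in mouse spermatids.

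Promoter sequences were taken from RefSeq (GRCm38.p6) and run from 250 bases before to 50 bases after the annotated start; 8 of the 10 genes were matched. The 4 shown belong to the genes on which the day 25 results turn: Fhl5 and Sox5, which had the largest differences, Rfx2, and Taf7l, which moved the opposite way. Capitals mark matches, on either strand, to the RFX motif GTTGCC, the SOX core AACAAT, the E-box CACGTG, the TATA motif TATAA or the short CRE motif TGACG.
Fhl5 (chr4:25242803-25243102, minus strand): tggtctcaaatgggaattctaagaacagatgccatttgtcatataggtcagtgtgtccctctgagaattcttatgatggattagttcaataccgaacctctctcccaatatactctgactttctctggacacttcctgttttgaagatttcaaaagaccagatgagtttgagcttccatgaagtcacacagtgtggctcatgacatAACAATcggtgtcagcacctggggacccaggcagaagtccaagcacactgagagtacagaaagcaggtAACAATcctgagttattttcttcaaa
Sox5 (chr6:143947057-143947356, minus strand): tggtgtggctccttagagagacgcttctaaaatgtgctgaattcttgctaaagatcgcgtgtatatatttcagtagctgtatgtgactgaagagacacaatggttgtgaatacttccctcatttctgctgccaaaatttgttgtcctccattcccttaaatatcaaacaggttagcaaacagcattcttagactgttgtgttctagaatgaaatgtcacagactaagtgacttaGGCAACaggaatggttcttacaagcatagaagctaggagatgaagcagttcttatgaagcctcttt
Rfx2 (chr17:56830959-56831258, minus strand): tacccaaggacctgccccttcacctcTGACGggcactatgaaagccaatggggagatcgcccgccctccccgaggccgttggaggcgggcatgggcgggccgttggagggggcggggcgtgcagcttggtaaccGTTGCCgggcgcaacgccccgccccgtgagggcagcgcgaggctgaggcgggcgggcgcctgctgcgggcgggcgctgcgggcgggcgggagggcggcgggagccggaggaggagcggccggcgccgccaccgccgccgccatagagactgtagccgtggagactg
Taf7l (chrX:134476441-134476740, minus strand): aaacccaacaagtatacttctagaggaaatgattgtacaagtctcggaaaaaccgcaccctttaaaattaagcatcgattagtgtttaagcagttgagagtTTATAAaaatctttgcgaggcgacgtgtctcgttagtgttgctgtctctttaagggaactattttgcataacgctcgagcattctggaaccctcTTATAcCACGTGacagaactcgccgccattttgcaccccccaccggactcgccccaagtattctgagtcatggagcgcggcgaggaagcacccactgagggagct
The listed Sox5 start lies inside the annotated gene. Fhl5 has a second listed start, for which none of these 5 motifs was found.

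The RFX motif was found in 2 of the 9 promoter entries of these genes, those of Rfx2 and Sox5, and in 12.5% of all 32851 promoters of that length. Both matches to the SOX core lay in 1 Fhl5 entry, against 10.7% of all promoters with at least 1. The E-box stood in the Taf7l and Brdt entries (7.15% of all promoters), and TATAA stood in the Taf7l entry alone of the 9, with 2 of its 3 matches overlapping on opposite strands (24.9% of all). The full CRE TGACGTCA, which contains the short motif, was in none of the 9 entries (1.79% of all promoters), and the short motif was in the Rfx2 entry alone (20.8% of all). The MYB core AACNG was in all 9 and in 80.3% of all promoters, so it was not marked. These matches describe letters in 1 window per start and say nothing of binding.

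Several arrays stood apart before any test. Spink8, an epididymal transcript, lay above 7 log2 units in 3 day 15 arrays (wildtype unexposed 2 and 3 and homozygous PTU-exposed 2) and in 4 day 25 arrays, which include both homozygous PTU-exposed arrays at 12.9 and 12.8. Over the 5 epididymal markers of 6 on the day 25 array, summed log2 levels ran from 30.95 to 32.88 in homozygous PTU-exposed testes and from 26.92 to 27.95 in homozygous unexposed testes, with 2 of the 5 below the filter in every array of both groups; heterozygous PTU-exposed sums reached 31.02 and wildtype PTU-exposed sums 29.66. Over the 3 fat markers of 5 on that array, the sums ran from 22.5 to 26.0 in homozygous PTU-exposed testes and from 16.0 to 16.9 in homozygous unexposed testes. In the other groups the fat sums ran from 19.5 to 30.45 in wildtype PTU-exposed testes against 15.05 to 15.91 in wildtype unexposed testes, and up to 22.4 in heterozygous PTU-exposed and 22.6 in heterozygous unexposed testes. The day 15 arrays were split into 2 sets, a number fixed beforehand, by clustering on 1685 bright probe sets without a gene name. The smaller set held 6 arrays, none of them wildtype. Akt1 signal itself overlapped between genotypes (day 15: 9.01 to 9.74 in homozygous, 8.83 to 9.96 in heterozygous and 9.34 to 10.1 in wildtype arrays), and no Akt1 difference passed the test at either age; the deleted part of the gene is not given, so this does not check the labels. What part these features have in the results below was not tested, except where a value without those arrays is given.

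At day 15, unexposed Akt1 homozygous testes had less of 7 of the 10 regulators than unexposed wildtype testes: Brdt, Sox30, Crem, Rfx2, Tcfl5, Mybl1 and Tbpl1. The falls were between 1.58-fold (Tbpl1) and 2.71-fold (Brdt), and for each of the 7 all 3 homozygous arrays lay below all 3 wildtype arrays. The share of all genes separated in this way was not counted. None of the 10 rose. Of all genes tested, 14.2% were lower and 14.6% higher in this comparison (limma, Benjamini-Hochberg adjusted p under 0.05 over all genes), and the median difference was -1.24 log2 units over the 10 regulators and 0.08 over all genes. All 7 calls held under each of the 27 alternative settings, among them the fit with the array set as a block. The fit without the Spink8 arrays is no check on these calls. It keeps wildtype unexposed array 1 alone of its group, and that array was the highest of the 3 for each of these 7 genes. In whole testis RNA, fewer cells of a type and less RNA per cell cannot be told apart.

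In wildtype mice at day 15, PTU changed 3 of the 10 regulators. Tcfl5 and Rfx2 fell and Taf7l rose, so 2 of the 10 were lower and 1 higher, against 8.75% of all genes lower and 6.53% higher. For 7 of the 10 the 3 PTU-exposed wildtype arrays lay below the 3 unexposed wildtype arrays, a separation that was not counted over all genes. The median difference was -0.52 over the 10 regulators and 0.03 over all genes. This comparison shares its unexposed wildtype arrays with the one above. The count was sensitive to the fit: with the 2 groups compared alone or with array weights 8 regulators passed.

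**Figure D1:**
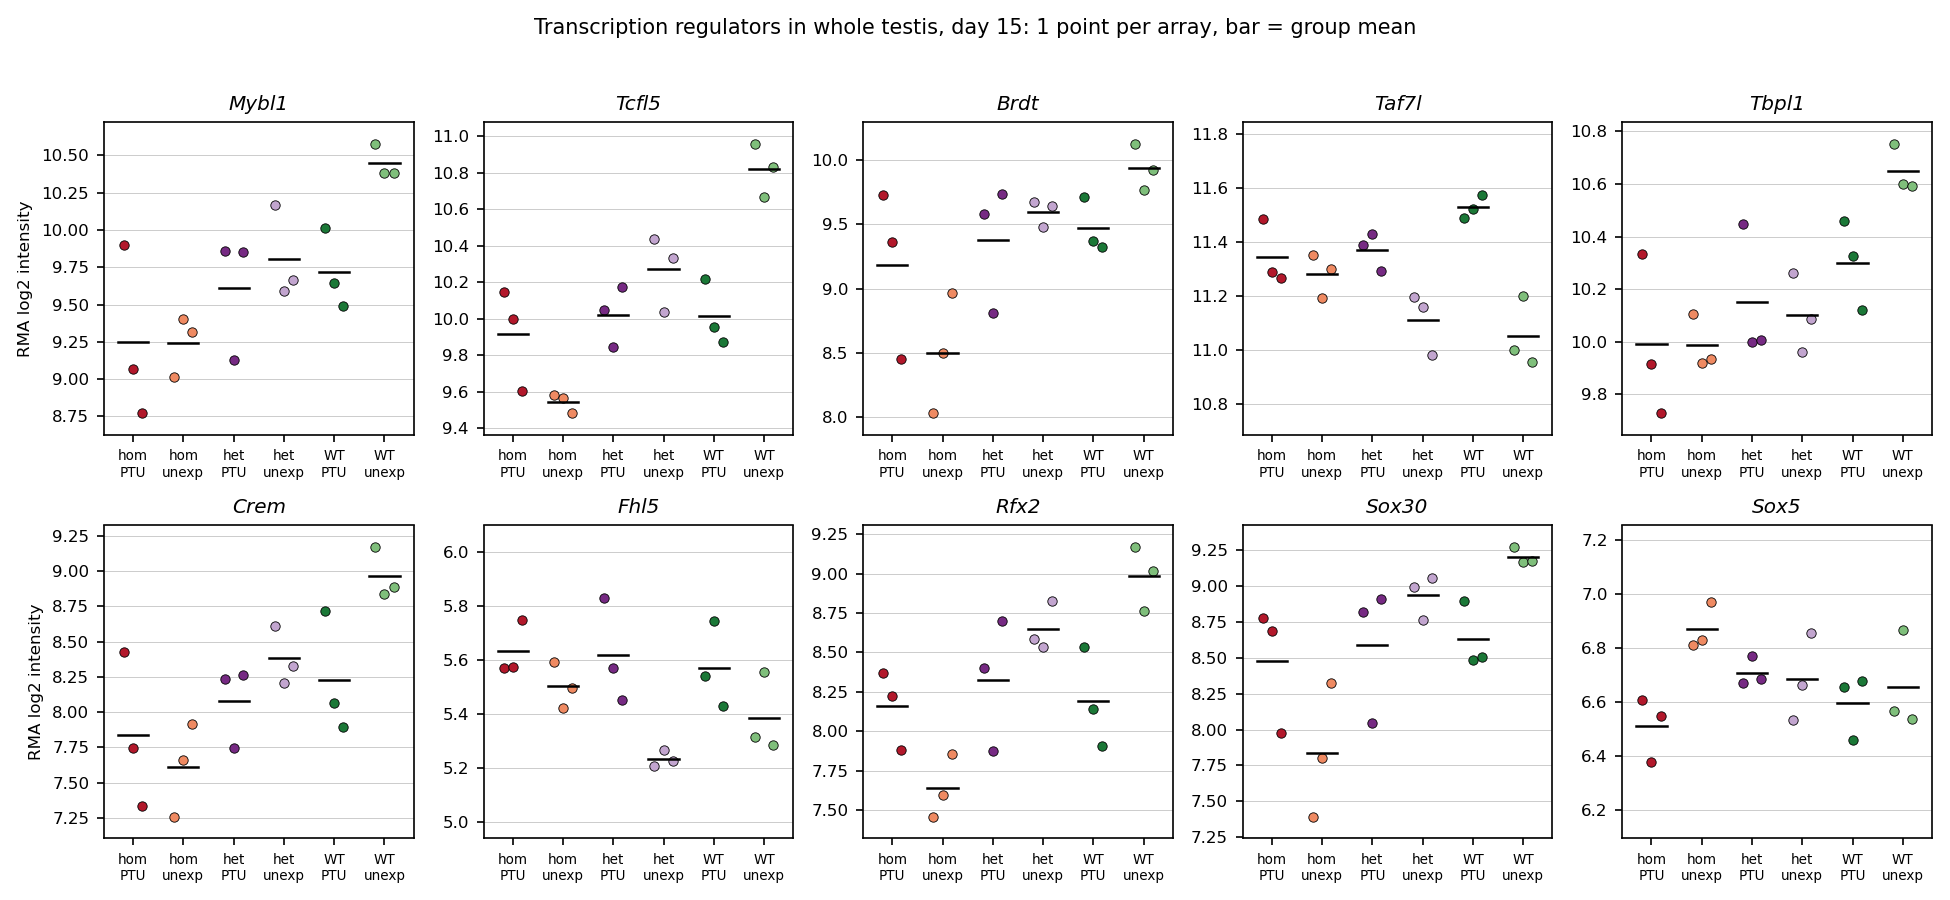
Day 15 levels of the 10 regulators. Each panel is 1 gene, the y axis is the RMA log2 intensity with its own range, each point is 1 array and the bar is the group mean; groups run from homozygous PTU-exposed to wildtype unexposed. For Mybl1, Tcfl5, Brdt, Tbpl1, Crem, Rfx2 and Sox30 the wildtype unexposed mean is the highest and the homozygous unexposed arrays lie below every wildtype unexposed array; Taf7l is lowest on average in wildtype unexposed testes.

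Mybl1, the pachytene activator, gave 9.02, 9.40 and 9.32 in homozygous unexposed arrays, against 10.58, 10.38 and 10.38 in wildtype unexposed arrays. The groups did not overlap, and the difference was -1.20 ± 0.25 log2 units (standard error), adjusted p = 0.00173. PTU-exposed wildtype arrays read 10.01, 9.64 and 9.49, all below the unexposed wildtype arrays, yet the difference of -0.73 ± 0.25 did not pass (adjusted p = 0.0561).

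Tcfl5, the other spermatocyte factor, had the lowest adjusted p of the 10 in both comparisons. Its arrays read 9.58, 9.57 and 9.48 in homozygous unexposed testes, against 10.96, 10.67 and 10.83 in wildtype unexposed testes, a difference of -1.28 ± 0.14 (adjusted p = 8.29e-06). In wildtype testes PTU lowered Tcfl5 to 10.22, 9.95 and 9.87, with no overlap with the unexposed arrays (-0.81 ± 0.14, adjusted p = 0.00115). Heterozygous unexposed arrays, at 10.44, 10.04 and 10.33, lay between the homozygous and the wildtype unexposed arrays, and the difference from wildtype was -0.55 ± 0.14 (adjusted p = 0.0376). The means ranked wildtype unexposed 10.82 ± 0.15, heterozygous unexposed 10.27 ± 0.21, heterozygous PTU-exposed 10.02 ± 0.16, wildtype PTU-exposed 10.01 ± 0.18, homozygous PTU-exposed 9.92 ± 0.28 and homozygous unexposed 9.54 ± 0.05 (SD, n = 3 each); the middle 4 groups overlapped.

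Among the chromatin and general transcription factors, Brdt showed the largest fall and Taf7l the opposite sign. Brdt read 8.03, 8.50 and 8.96 in homozygous unexposed arrays and 10.13, 9.76 and 9.92 in wildtype unexposed arrays (-1.44 ± 0.28, adjusted p = 0.00115). PTU in wildtype gave -0.47 ± 0.28 for Brdt (adjusted p = 0.294). Tbpl1, the TBP-like factor needed for spermatid development in mice, read 10.11, 9.92 and 9.94 in homozygous unexposed arrays, against 10.75, 10.60 and 10.59 in wildtype unexposed arrays (-0.66 ± 0.15, adjusted p = 0.00311). It was also lower in heterozygous unexposed testes, at 10.26, 9.96 and 10.09 (-0.55 ± 0.15, adjusted p = 0.0488), a call that held in only 13 of 27 settings.

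Taf7l, an X-linked paralog of the TFIID subunit Taf7, was the only one of the 10 that PTU raised in wildtype testes at day 15. Its arrays read 11.49, 11.52 and 11.57 in PTU-exposed wildtype testes and 11.00, 11.20 and 10.96 in unexposed wildtype testes, without overlap (0.48 ± 0.09, 1.39-fold, adjusted p = 0.00235). In heterozygous testes all 3 PTU-exposed arrays also lay above the unexposed ones, with a difference of 0.26 ± 0.09 that did not pass (adjusted p = 0.222). The homozygous unexposed minus wildtype unexposed difference of 0.23 ± 0.09 missed the threshold (adjusted p = 0.072).

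Of the Crem pair, Crem was measured well above the filter at day 15 and Fhl5 was not. Crem read 7.26, 7.66 and 7.92 in homozygous unexposed arrays, against 9.17, 8.84 and 8.89 in wildtype unexposed arrays (-1.35 ± 0.25, adjusted p = 0.000717). PTU-exposed wildtype arrays, at 8.72, 8.06 and 7.90, all lay below the unexposed wildtype arrays, and the difference of -0.74 ± 0.25 just missed (adjusted p = 0.0565). Fhl5 stayed between 5.21 and 5.83 in all 18 arrays, around the filter level of 5.56, and none of its 9 contrasts passed.

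Rfx2, the X-box factor, read 7.46, 7.60 and 7.86 in homozygous unexposed arrays and 9.17, 8.76 and 9.01 in wildtype unexposed arrays (-1.35 ± 0.20, adjusted p = 8.37e-05). PTU-exposed wildtype arrays read 8.54, 8.14 and 7.90, again without overlap with the unexposed ones (-0.79 ± 0.20, adjusted p = 0.0123). The PTU call for Rfx2 was lost in 4 of 27 settings. These were without wildtype unexposed array 1 (adjusted p = 0.0707), without wildtype PTU-exposed array 2 (0.055) or 3 (0.0772), and without the Spink8 arrays. That last fit keeps wildtype unexposed array 1 alone of its group and gave -0.97.

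The SOX genes differed from each other. Sox30 read 7.39, 7.80 and 8.33 in homozygous unexposed arrays, against 9.27, 9.16 and 9.18 in wildtype unexposed arrays (-1.36 ± 0.25, adjusted p = 0.000521). Sox5 lay between 6.38 and 6.97 in all 18 arrays and no contrast passed, although the 3 homozygous PTU-exposed arrays (6.61, 6.38 and 6.55) were below the 3 homozygous unexposed arrays (6.81, 6.83 and 6.97; -0.36 ± 0.11, adjusted p = 0.0642).

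In homozygous testes at day 15 no PTU difference passed for any of the 10 genes, against 4.96% of all genes called in either direction; Tcfl5 and Rfx2 had all 3 PTU-exposed arrays above all 3 unexposed arrays, with differences of 0.37 ± 0.14 and 0.52 ± 0.20 (adjusted p = 0.133 and 0.131). The PTU effect in homozygous mice minus that in wildtype mice was 1.18 ± 0.20 for Tcfl5 (adjusted p = 0.00117), 1.31 ± 0.28 for Rfx2 (0.00493), 1.22 ± 0.35 for Sox30 (0.0252) and -0.41 ± 0.13 for Taf7l (0.0394). That is 3 of 10 higher and 1 lower, against 8.23% of all genes higher and 8.13% lower. The Tcfl5 and Rfx2 values passed in all 27 settings, while Sox30 passed in 19 and Taf7l in 15 of the 27. Taf7l failed with no filter and with the groups compared alone, and both genes failed in several fits that left out a single array. In the homozygous PTU-exposed group, array 1 was highest in 9 of the 10 genes and array 3 lowest in 8, so this group had a wide spread (for Brdt 9.73, 9.36 and 8.45).

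With PTU on both sides, no genotype difference in the regulators passed the test at day 15. Against wildtype PTU-exposed testes, 0% of all genes was called in homozygous PTU-exposed and 0% in heterozygous PTU-exposed testes (0 of 16710 by limma, with 4266 and 887 genes at an unadjusted p under 0.05). With the replicate block, 750 genes but none of the 10 were called in the homozygous comparison. PTU in heterozygous testes called none of the 10 (0.569% of all genes), and neither did the PTU effect in heterozygous minus that in wildtype (0.449% of all genes). Heterozygous unexposed testes were lower than wildtype in Tcfl5 and Tbpl1 alone among the 10, against 3.23% of all genes lower and 0.718% higher; the replicate block kept both calls and took the genes called in all to 1303, against 660 without it. Both calls ended when the array set was a block (adjusted p = 0.149 and 0.203). The Tcfl5 call held in 19 and the Tbpl1 call in 13 of 27 settings. Without the Spink8 arrays, a fit that keeps wildtype unexposed array 1 alone of its group, the differences were -0.69 and -0.65.

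Genes of the classes that Mybl1 and RFX factors bind, from lists chosen with earlier results of these data known, were mostly lower at day 15 in unexposed homozygous against unexposed wildtype testes, where 14.2% of all genes were lower and 14.6% higher. Of the class that needs Crem or Tbpl1, 1 of 9 tested genes was lower and 0 were higher (median 0.08). The 12 listed genes of this class averaged 5.76 to 5.89 in wildtype unexposed and 5.69 to 5.73 in homozygous unexposed arrays, near the filter level of 5.56. In those groups 7 and 5 of the 12 were below the filter in every array, where a fall could hardly be seen. In that comparison 10 of 11 piRNA pathway genes were lower, with a median of -1.14. They include Mael at -1.03 ± 0.12 (adjusted p = 1.22e-05), Tdrd6 at -3.86 ± 0.46 (1.43e-05) and Tdrd1 at -1.46 ± 0.23 (0.000147), which encode proteins of germ cell granules. Of 11 cilium and sperm tail genes 10 were lower (median -2.09), and the 3 with the smallest p were the tektin gene Tekt2 at -1.17 ± 0.13, Spag6l at -4.02 ± 0.46 and Ift172 at -1.49 ± 0.19. All 8 pachytene markers were lower (median -2.72; Adam3 -4.38 ± 0.41, Pgk2 -2.50 ± 0.25), as were 5 of 8 early meiotic markers, while 5 of 7 spermatogonial and 5 of 7 Sertoli markers were higher. The lower gene of the list of haploid genes was Acr, the acrosin gene (-2.95 ± 0.35).

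In PTU-exposed wildtype against unexposed wildtype testes the same lists gave 6 of 11 piRNA pathway genes lower, 9 of 11 cilium and sperm tail genes lower, and 8 of 8 pachytene markers lower. Tdrd6 was at -2.88 ± 0.46, Tekt2 at -1.11 ± 0.13, Pgk2 at -2.27 ± 0.25 and Adam3 at -3.62 ± 0.41. Spermatogonial markers were higher in 3 of 7 and Sertoli markers in 4 of 7, and 5 of 6 macrophage markers were lower. Of all genes, 8.75% were lower and 6.53% higher in this comparison. The 8 pachytene markers averaged 7.55 to 8.67 in PTU-exposed wildtype arrays and 9.80 to 10.3 in unexposed wildtype arrays. In homozygous unexposed arrays that average was 6.45 to 7.40.

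Of 19 family relatives of the 10 genes tested at day 15, 5 were lower and 3 higher in unexposed homozygous against unexposed wildtype testes, beside 14.2% of all genes lower and 14.6% higher, so the share higher was near that of all genes. Fhl4, a testis LIM-only gene, fell by 3.08 ± 0.39 log2 units, Tbp by 0.69 ± 0.10 and Rfx4 by 2.27 ± 0.35 (adjusted p = 2.27e-05, 9.16e-05 and 0.000144). The median over the 19 was 0.12.

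At day 25, 8 of the 10 regulators fell with PTU in Akt1 homozygous testes. There Fhl5, Sox5, Crem, Rfx2, Tbpl1, Sox30, Brdt and Tcfl5 were lower and Taf7l was higher; Mybl1 alone did not pass. The falls ran from 1.34-fold for Tcfl5 to 40.1-fold for Fhl5. All arrays of the 2 groups were apart for each of the 9 genes, which was not counted over all genes. The share of all genes called was large too: 32.8% were lower and 38.4% higher (6264 higher and 5351 lower of 16305). The median difference was -0.87 over the 10 regulators and 0.02 over all genes. Only 2 PTU-exposed arrays stand on 1 side, both with high Spink8, and array 2 was the more extreme in all 9 genes.

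**Figure D2:**
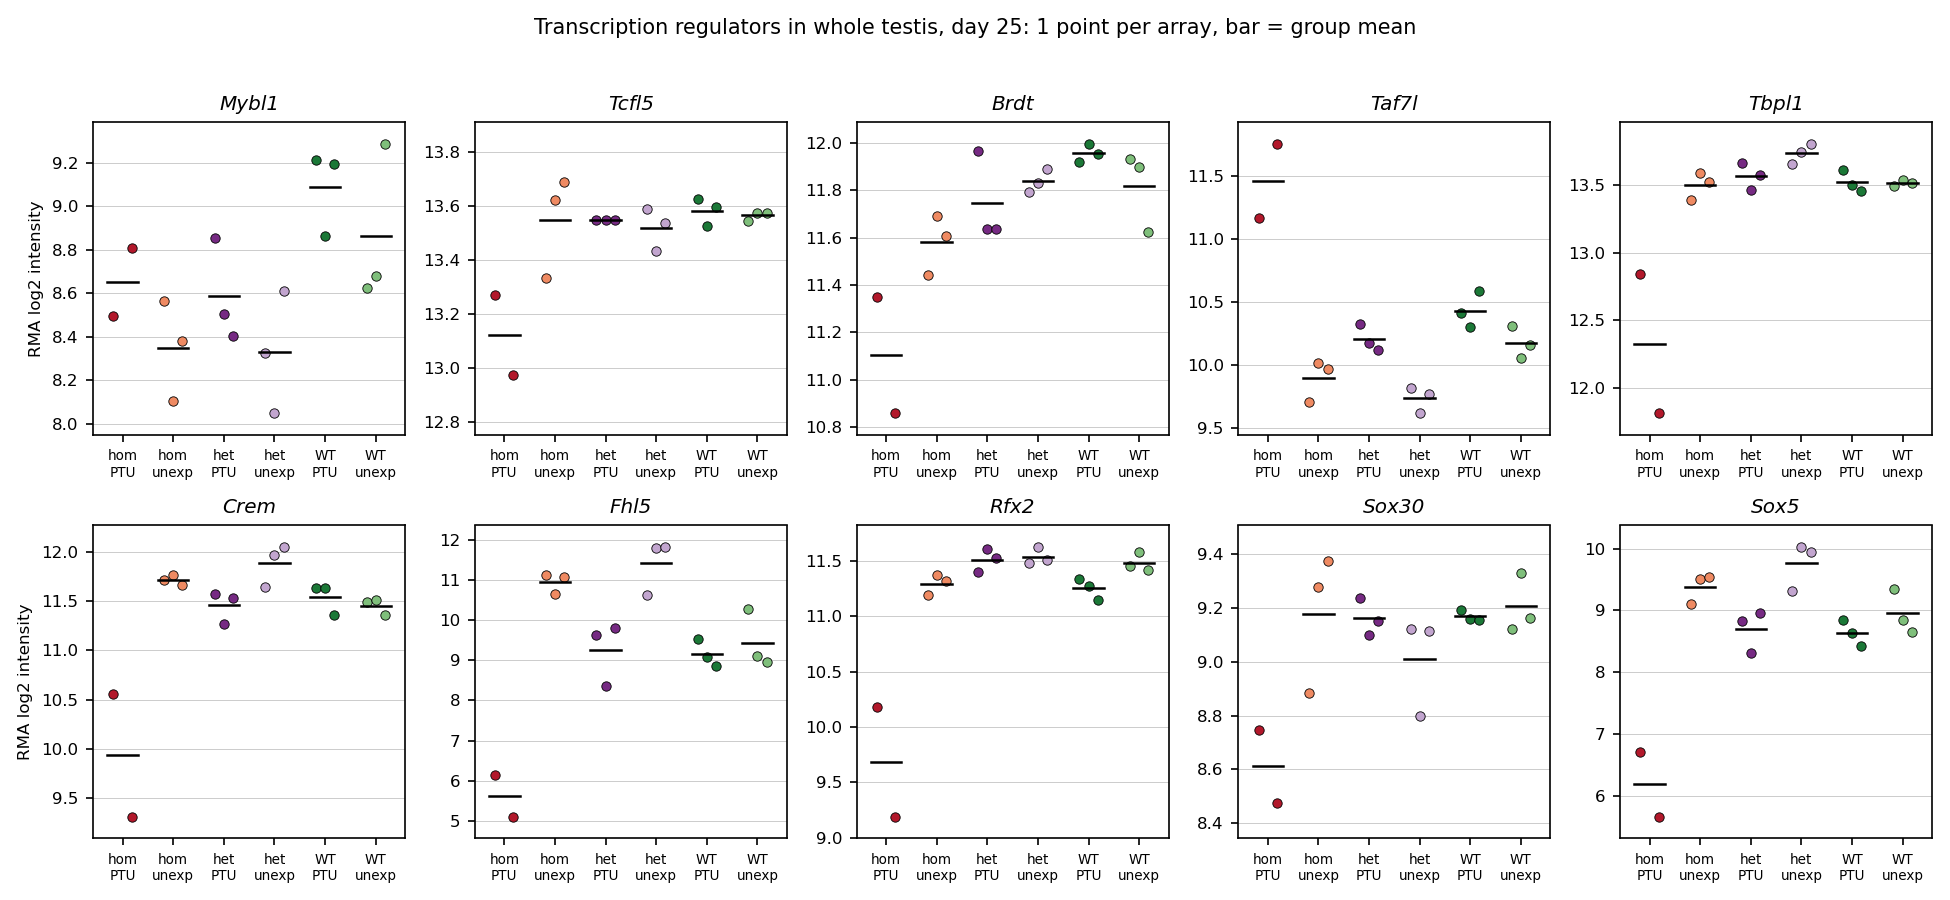
Day 25 levels of the 10 regulators, brightest probe set of each. The y axis is the RMA log2 intensity with a range of its own in each panel, each point is 1 array and the bar is the group mean. The 2 homozygous PTU-exposed arrays are the lowest for Tcfl5, Brdt, Tbpl1, Crem, Fhl5, Rfx2, Sox30 and Sox5 and the highest for Taf7l; Fhl5 is highest on average in heterozygous unexposed testes.

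Fhl5, the Crem coactivator, had the widest range. It read 6.14 and 5.11 in homozygous PTU-exposed arrays, against 11.12, 10.65 and 11.07 in homozygous unexposed arrays (-5.33 ± 0.48, adjusted p = 4.15e-07). In heterozygous testes PTU-exposed arrays read 9.62, 8.36 and 9.80 and unexposed arrays 10.63, 11.80 and 11.82, without overlap (-2.15 ± 0.43, 4.45-fold, adjusted p = 0.00557). In wildtype testes they read 9.52, 9.08 and 8.85 with PTU and 10.27, 9.11 and 8.94 without, and these groups overlapped (-0.29 ± 0.43, adjusted p = 0.984).

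Unexposed testes of both Akt1 genotypes had more Fhl5 than unexposed wildtype testes at this age. The differences were 1.51 ± 0.43 in homozygous (adjusted p = 0.0357) and 1.98 ± 0.43 in heterozygous testes (adjusted p = 0.00667), and each group lay wholly above the wildtype arrays. The homozygous call was lost in 5 of 25 settings, each of them without 1 homozygous or wildtype unexposed array (adjusted p from 0.0508 to 0.157), while the heterozygous call held in all 25. Means ranked heterozygous unexposed 11.42 ± 0.68, homozygous unexposed 10.95 ± 0.26, wildtype unexposed 9.44 ± 0.72, heterozygous PTU-exposed 9.26 ± 0.79 and wildtype PTU-exposed 9.15 ± 0.34 (SD, n = 3 each), then homozygous PTU-exposed 5.62 ± 0.73 (SD, n = 2). The first 2 overlapped each other, as did the 3 in the middle.

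Crem, the activator that Fhl5 assists, read 10.55 and 9.31 in homozygous PTU-exposed arrays and 11.72, 11.76 and 11.66 in homozygous unexposed arrays on its brightest probe set (-1.78 ± 0.24, 3.43-fold, adjusted p = 1.32e-05). The other Crem probe sets did not pass: the second brightest gave -0.27 and the next 0.21 (adjusted p = 0.0624 and 0.154 in the fit on every probe set), and the dimmest was not tested. The gene makes activator and repressor transcripts, and no source states which of them each probe set reads. The fall of Crem at day 25 therefore rests on 1 of 4 probe sets. In heterozygous testes Crem read 11.57, 11.26 and 11.53 with PTU, all below 11.64, 11.96 and 12.05 without (-0.43 ± 0.22, adjusted p = 0.188).

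Rfx2 read 10.18 and 9.19 in homozygous PTU-exposed arrays, against 11.19, 11.37 and 11.32 in homozygous unexposed arrays (-1.61 ± 0.19, 3.06-fold, adjusted p = 3.54e-06). All 4 of its probe sets were lower, from -0.34 for the dimmest to -2.16 for the second brightest, and all 4 passed in the fit on every probe set. No other PTU or genotype comparison without the homozygous PTU-exposed group called Rfx2 at this age; in wildtype testes all 3 PTU-exposed arrays (11.34, 11.28 and 11.15) lay just below the unexposed ones (11.46, 11.58 and 11.42), a difference of -0.23 ± 0.17 (adjusted p = 0.934).

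Sox5 read 6.71 and 5.66 in homozygous PTU-exposed arrays and 9.10, 9.51 and 9.55 in homozygous unexposed arrays (-3.20 ± 0.30, 9.18-fold, adjusted p = 5.65e-07). In heterozygous testes it read 8.83, 8.32 and 8.95 with PTU, against 9.31, 10.03 and 9.95 without, again with no overlap (-1.06 ± 0.27, adjusted p = 0.0157). Unexposed heterozygous testes had more than unexposed wildtype testes (0.81 ± 0.27, adjusted p = 0.0445), but these groups overlapped, since wildtype unexposed arrays read 9.35, 8.85 and 8.66. Of its 7 probe sets the 3 brightest gave -3.20, -3.36 and -2.91 for PTU in homozygous testes, and of the 4 dim ones 3 gave no call and 1 was not tested.

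Sox30, the other SOX gene, had a small difference. It read 8.75 and 8.48 in homozygous PTU-exposed arrays, against 8.88, 9.28 and 9.37 in homozygous unexposed arrays (-0.56 ± 0.14, adjusted p = 0.00215). The groups were apart by a small margin, and no comparison without the homozygous PTU-exposed group called it.

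Tbpl1 read 12.84 and 11.81 in homozygous PTU-exposed arrays and 13.39, 13.59 and 13.52 in homozygous unexposed arrays (-1.17 ± 0.19, 2.26-fold, adjusted p = 7.06e-05). Over the 24 alternative settings the difference ran from -1.69 to -0.66. Its second probe set did not pass, with 9.77 and 9.70 in homozygous PTU-exposed arrays and 9.66, 9.55 and 9.46 in homozygous unexposed arrays (0.18, adjusted p = 0.109). The call for Tbpl1 therefore rests on the brighter of 2 probe sets.

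Brdt read 11.35 and 10.86 in homozygous PTU-exposed arrays, against 11.44, 11.69 and 11.61 in homozygous unexposed arrays (-0.48 ± 0.14, adjusted p = 0.008). Its second probe set gave -0.67 (adjusted p = 0.000207) and its dimmest gave 0.46 (adjusted p = 0.0829). The Brdt call was lost with the 2 groups compared alone (adjusted p = 0.0648), with array weights (0.0742) and without homozygous PTU-exposed array 2 (0.197).

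Of the spermatocyte factors, Tcfl5 passed with a small difference and Mybl1 did not pass. All 3 heterozygous PTU-exposed arrays gave Tcfl5 the same value, 13.55 (SD 0), which enters the spread shared by the 6 groups. The cause of these tied values was not tested. Tcfl5 read 13.27 and 12.98 in homozygous PTU-exposed arrays and 13.33, 13.62 and 13.69 in homozygous unexposed arrays (-0.43 ± 0.11, adjusted p = 0.00258), a call lost in 2 of 24 settings, among them the fit without homozygous PTU-exposed array 2 (adjusted p = 0.0608). Mybl1 read 8.50 and 8.81 in homozygous PTU-exposed arrays, against 8.56, 8.10 and 8.38 in homozygous unexposed arrays, with overlap (0.30 ± 0.22, adjusted p = 0.224).

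Mybl1 did differ by genotype on its dimmer probe set. That set read 6.10 and 5.70 in homozygous PTU-exposed arrays, against 7.18, 6.86 and 7.14 in wildtype PTU-exposed arrays (-1.16, adjusted p = 8.77e-05). The unexposed groups read 5.89, 5.55 and 5.45 in homozygous and 6.42, 6.55 and 6.93 in wildtype arrays (-1.003, adjusted p = 0.00437). The brighter set gave -0.44 and -0.52 for the same comparisons and did not pass.

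Taf7l went up where the others went down. It read 11.16 and 11.75 in homozygous PTU-exposed arrays, against 9.70, 10.01 and 9.97 in homozygous unexposed arrays (1.56 ± 0.15, 2.96-fold, adjusted p = 7.66e-07). Heterozygous arrays read 10.32, 10.17 and 10.11 with PTU and 9.82, 9.61 and 9.77 without (0.47 ± 0.14, adjusted p = 0.03). Wildtype arrays read 10.41, 10.30 and 10.58 with PTU and 10.31, 10.05 and 10.16 without (0.26 ± 0.14, adjusted p = 0.861), where the lowest PTU-exposed array was below the highest unexposed one. Unexposed heterozygous testes had less Taf7l than unexposed wildtype testes (-0.44 ± 0.14, adjusted p = 0.0341).

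**Figure D3:**
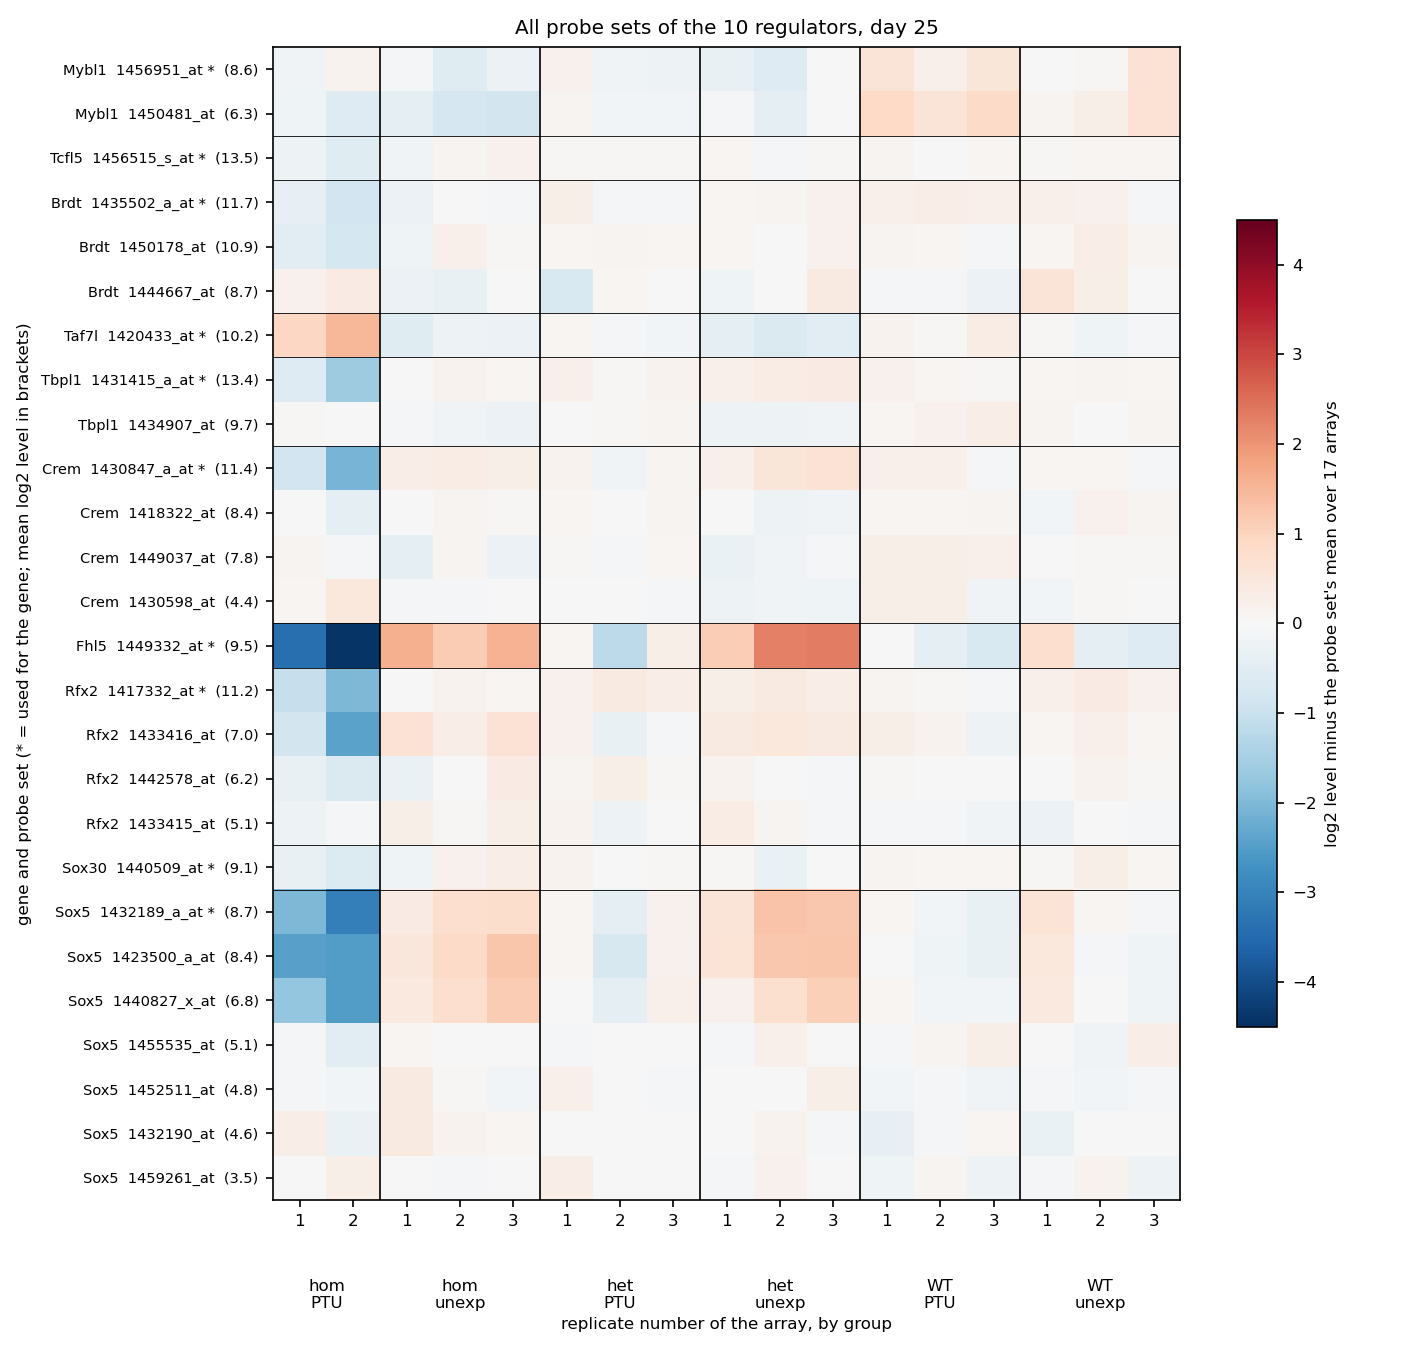
All 26 probe sets of the 10 regulators at day 25. Rows are probe sets (gene, probe set, mean log2 level in brackets, an asterisk for the set used for the gene), columns are the 17 arrays by group and replicate number, and the colour is the log2 level minus the mean of the row. The homozygous PTU-exposed columns are bluest for Fhl5, the 3 bright Sox5 sets, 2 Rfx2 sets and 1 Crem set, and red for Taf7l; the other Crem sets and the second Tbpl1 set stay pale.

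Set against PTU-exposed wildtype testes, PTU-exposed homozygous testes gave the same 9 calls: 8 of the 10 lower and Taf7l higher, with 28.4% of all genes lower and 32.7% higher. Fhl5 differed by -3.53 ± 0.48 (adjusted p = 2.79e-05), Sox5 by -2.45 ± 0.30, Crem by -1.61 ± 0.24, Rfx2 by -1.57 ± 0.19, Tbpl1 by -1.20 ± 0.19 and Brdt by -0.85 ± 0.14. The smallest were Sox30 at -0.56 ± 0.14 and Tcfl5 at -0.46 ± 0.11, while Taf7l rose by 1.03 ± 0.15. The Sox30 call was lost without homozygous PTU-exposed array 2 (adjusted p = 0.056). This comparison shares its homozygous PTU-exposed arrays with the one above.

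The PTU effect in homozygous mice also differed from that in wildtype mice for the same 9 genes at day 25. The difference between the effects was -5.04 ± 0.65 for Fhl5 (adjusted p = 3.77e-05), -2.88 ± 0.41 for Sox5 (6.29e-05), -1.87 ± 0.33 for Crem (0.000264) and 1.31 ± 0.21 for Taf7l (0.00013). Without homozygous PTU-exposed array 2, 6 of the 9 passed. In this test 8 of 10 were lower and 1 higher, against 26.3% of all genes lower and 33.1% higher. In wildtype testes PTU called none of the 10 at day 25, and 0% of all genes was called (0 of 16305 by limma, with 978 at an unadjusted p under 0.05).

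In heterozygous testes PTU called Fhl5 and Sox5 lower and Taf7l higher, 2 and 1 of 10, against 7.2% of all genes lower and 11.5% higher. The PTU effect in heterozygous minus that in wildtype passed for none of the 10 and for 0% of all genes (0 by limma, with 2982 at an unadjusted p under 0.05); for Fhl5 it was -1.86 ± 0.61 (adjusted p = 0.152). Without heterozygous PTU-exposed array 2, or without heterozygous unexposed array 2 or 3, only Fhl5 was still called. That PTU-exposed array had the highest Spink8 of its group (10.1) and the lowest Fhl5 and Sox5. All 3 calls held in the fit without any array whose Spink8 was above 7. That fit also leaves out both homozygous PTU-exposed arrays, so the spread estimated over all groups differs as well. Taf7l was not called without heterozygous PTU-exposed array 1 either (limma, adjusted p = 0.0987).

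Without PTU, genotype called few of the regulators at day 25. Homozygous unexposed testes differed from wildtype in Fhl5 alone, 1 of 10 higher and 0 lower, against 5.35% of all genes higher and 7.32% lower. Heterozygous unexposed testes had 2 of 10 higher (Fhl5 and Sox5) and Taf7l lower, against 8.32% higher and 14.3% lower. The heterozygous count ran from 1 to 6 as single arrays were left out; the Sox5 call held in 13 and the Taf7l call in 19 of 25 settings. Between PTU-exposed heterozygous and PTU-exposed wildtype testes none of the 10 passed (0.092% of all genes).

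**Figure D4:**
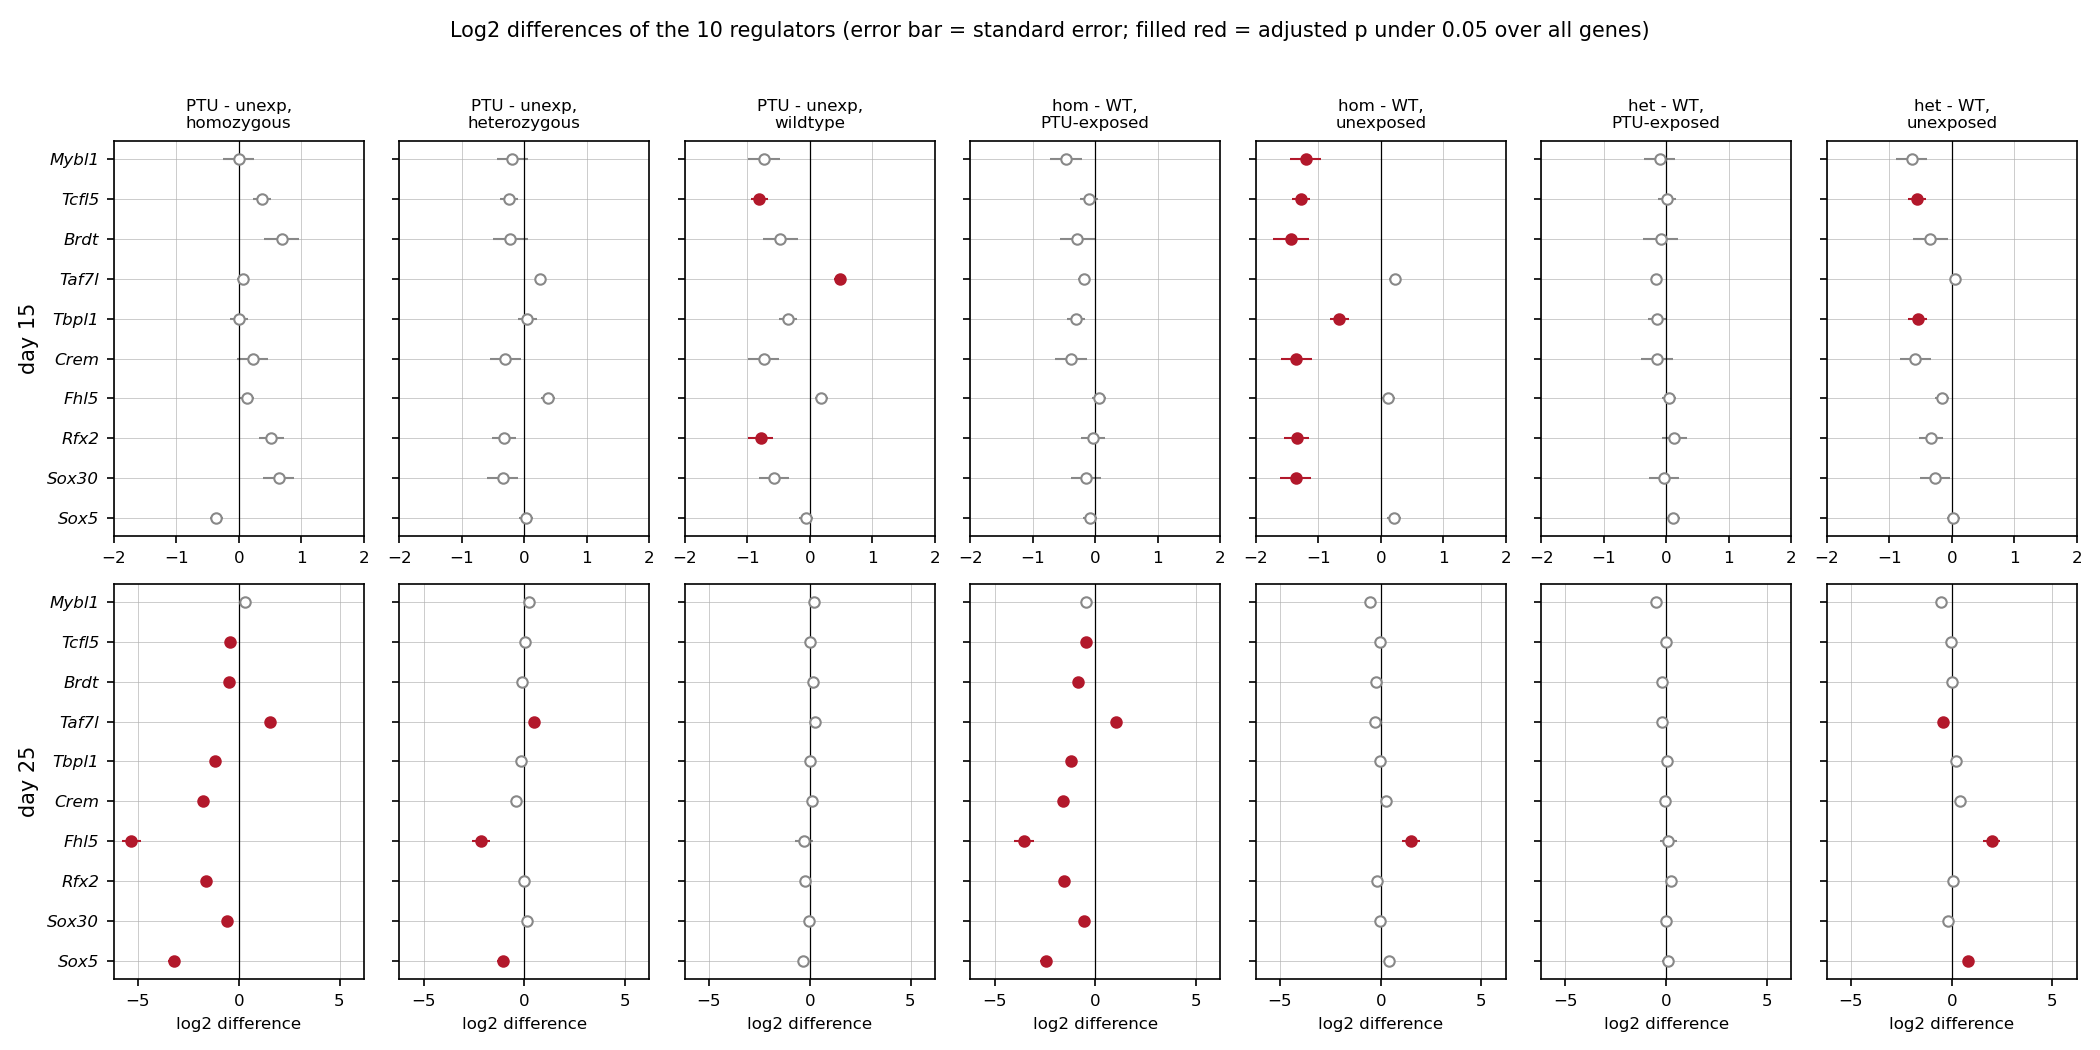
Log2 differences of the 10 regulators at day 15 (upper row) and day 25 (lower row, wider x axis) in 7 comparisons. Points are differences, bars are standard errors and filled red points passed adjusted p 0.05 over all genes. At day 15 the filled points gather in homozygous against wildtype unexposed testes; at day 25 they gather where the homozygous PTU-exposed arrays enter, with Fhl5 and Sox5 farthest left and Taf7l to the right.

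The related gene lists at day 25 are read against 32.8% of all genes lower and 38.4% higher for PTU in homozygous testes. PTU in homozygous testes lowered 12 of 12 haploid genes, with a median of -6.002; Gapdhs, a sperm glycolytic enzyme, fell by 5.33 ± 0.42, the sperm tail gene Akap4 by 5.79 ± 0.48 and the acrosomal Acrv1 by 5.83 ± 0.50. Of 11 cilium and sperm tail genes 10 were lower (median -1.86), among them Foxj1, a ciliary transcription factor, at -3.34 ± 0.26 and Tekt2 at -3.03 ± 0.38. Of 10 piRNA pathway genes 4 were lower, near the share of all genes, and 1 was higher; Piwil1, a Piwi gene of pachytene cells, was at -0.54 ± 0.11. All 8 pachytene markers were lower, and the change in early meiotic markers was mostly upward, with 6 of 8 higher (Dmc1 1.46 ± 0.14) and Rec8 lower (-1.95 ± 0.18).

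Spermatogonial and Sertoli markers rose in the same comparison, 7 of 7 and 6 of 7. Dmrt1 was at 1.47 ± 0.15 and Zbtb16, a marker of undifferentiated spermatogonia, at 1.66 ± 0.19. Mean levels of the 12 haploid genes were 5.64 to 6.78 in homozygous PTU-exposed arrays and 11.45 to 11.96 in homozygous unexposed arrays; those of the 7 spermatogonial markers were 8.94 to 9.45 in homozygous PTU-exposed arrays and 7.98 to 8.09 in homozygous unexposed arrays. Of the 3 fat markers 2 were higher (median 4.17), and 3 of 6 macrophage and 2 of 4 Leydig markers were lower, counts to be read against the same 38.4% higher and 32.8% lower of all genes. For PTU in wildtype testes the fat median was 4.07, and none of the 3 passed. In homozygous testes Spink8 was higher by 6.83 ± 0.95 with PTU, while Rnase10, another epididymal marker, fell by 2.03 ± 0.36.

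In heterozygous testes PTU lowered 11 of 12 haploid genes (median -1.82; Prm2 -4.18 ± 0.79, Tnp2 -4.32 ± 0.86), none of 11 cilium and sperm tail genes, none of 10 piRNA pathway genes and none of 8 pachytene markers. Of all genes, 7.2% were lower with PTU in heterozygous testes. Without PTU, haploid genes were higher than in wildtype in 8 of 12 for heterozygous testes (median 1.60, against 8.32% of all genes higher). In homozygous testes without PTU 6 of 12 were higher (median 1.27, against 5.35% of all genes higher), with Prm2, a protamine gene, at 3.33 ± 0.79. Of 17 family relatives 7 were lower and 6 higher for PTU in homozygous testes (median -0.18), near the shares of all genes. The one with the smallest p, Rfx3, was at -2.47 ± 0.19 for PTU in homozygous testes, -0.95 ± 0.17 for PTU in heterozygous testes, and 0.83 ± 0.17 for homozygous and 0.90 ± 0.17 for heterozygous against wildtype unexposed testes. Taf7, the ubiquitous paralog of Taf7l, named after its values were seen, was at 1.10 ± 0.17 for PTU in homozygous testes and 0.57 ± 0.15 for PTU in heterozygous testes.

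The genes whose pattern over the arrays was most like the mean of the 10 regulators differed between the ages. At day 15, over 18 arrays and 16700 other genes, they were Tmem67, Kbtbd6, Ccp110, Psip1 and Znrd1as, with Pearson r from 0.989 for Tmem67 to 0.985 for Znrd1as. At day 25, over 17 arrays and 16295 other genes, they were Samd10, Stard6, 4930503L19Rik, Cfap157 and Izumo3, with r from 0.990 for Samd10 to 0.988 for Izumo3. The arrays share groups and the normalization, so these values describe likeness only.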

How the data were processed

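Whole testis RNA (TriReagent, per the labels' protocols) was hybridised to 18 day 15 and 17 day 25 Affymetrix arrays. The values are log2 intensities per probe set that the authors made with RMA and deposited, per the submitters' processing notes; its version: not given in the sources used here. RMA quantile-normalizes the arrays, which holds their distributions alike, so a shift of most genes cannot be seen. Precision is limited by 2 or 3 arrays per group. Labels tell that each array is 1 mouse; litters are not given.

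Probe sets were named from the platform annotation: at day 15, 21789 had 1 symbol, 1621 several and 12146 none; at day 25, 34958, 932 and 9211. Those with several were left out. The brightest probe set stood for a gene, and a gene was tested if 2 arrays or more exceeded the 25th percentile of the age's values (log2 of 5.56 at day 15 and of 4.76 at day 25). limma 3.58.1 in R 4.3.3 fitted 6 group means per age with 9 contrasts; p-values were adjusted by Benjamini-Hochberg over all genes tested, with 0.05 as the threshold. Each gene has 1 estimate of its spread, shared by the 6 groups, so a standard error does not measure the spread within a single group. The fit was tested on simulated data.

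The members, the related lists and the marker lists were chosen with earlier results of these data known. Named beside the 10 genes are up to 3 genes per list with the smallest p in a contrast (Taf7 under PTU was added after its values were seen) and the 5 most alike genes per age. Same-numbered arrays deviated together (every r over 0.1) in 4 contrasts between groups: at day 15 PTU in heterozygous (0.39 to 0.44), heterozygous minus wildtype unexposed (0.18 to 0.37) and homozygous minus wildtype PTU-exposed (0.14 to 0.56), and at day 25 PTU in wildtype (0.23 to 0.40). The alternatives were no filter, a 50th percentile filter, every probe set, quantile normalization, groups alone, array weights, the replicate block, the day 15 array set as a block, each array left out, and arrays with Spink8 above 7 left out; at day 25 that last one was chosen after seeing the data and has no value where homozygous PTU-exposed arrays enter. At day 15 it leaves wildtype unexposed array 1 as the only array of its group, so counts from it there are no check on comparisons with that group.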

Additional observations from a re-analysis of the deposited data

Results flagged for a closer look

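The difference between PTU-exposed and unexposed testes varied with genotype by a test of that variation itself, homozygous minus wildtype. At day 15 this was so for Tcfl5 (1.18), Rfx2 (1.31) and Sox30 (1.22), and for Taf7l (-0.41) with the opposite sign. At day 25 it was so for Fhl5 (-5.04), Sox5 (-2.88), Crem (-1.87), Rfx2 (-1.38), Tbpl1 (-1.18), Brdt (-0.61), Sox30 (-0.53) and Tcfl5 (-0.44), and for Taf7l (1.31). All are log2 differences past adjusted p 0.05 by limma over all genes. Tcfl5, Rfx2, Sox30 and Taf7l thus have differences of opposite sign at the 2 ages, which were measured on different arrays; the difference between ages was not tested. At day 15 the Sox30 value passed in 19 and the Taf7l value in 15 of 27 settings, and at day 25 the Sox30 value passed in 19 of 24. Within 1 genotype, PTU passed for 0 of the 10 in homozygous testes at day 15 and for 0 in wildtype testes at day 25. Sox30 at day 15 passed in neither genotype (limma, wildtype -0.57, adjusted p = 0.127, and homozygous 0.64, adjusted p = 0.136). Single arrays were not screened for outliers, since no group has 4.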

How the results depend on the processing

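Where the counts of regulators called were high, they moved little between settings. At day 25 this is a limited check, since each such count rests on the same 2 homozygous PTU-exposed arrays, both with high Spink8. No setting has a value without both of them. The day 15 settings include the fit without the Spink8 arrays, which is no check on comparisons with wildtype unexposed testes. Homozygous minus wildtype unexposed at day 15 kept its 7 in every setting (7 to 9 called), and at day 25 PTU in homozygous (7 to 9 with single arrays left out), homozygous minus wildtype PTU-exposed (8 to 9) and the PTU effect in homozygous minus wildtype (6 to 9) stayed within 1.5 times of 9. Over all regulators and settings 4475 values kept their side of the threshold, 89 lost it, 68 gained it and 0 calls changed sign. The values that kept their side include those called in neither fit. They also include fits that left out an array outside the comparison, where the difference itself cannot move. These totals therefore do not measure how firm a single call is. At day 15, PTU in wildtype (3) gave 8 with groups compared alone, 8 with array weights, 6 with the replicate block and 2 to 5 with single arrays left out. PTU in heterozygous and in homozygous (0) gave 0 to 1 and 0 to 3 with single arrays left out. Heterozygous minus wildtype unexposed (2) gave 1 with no filter, 1 with quantile normalization, 4 with groups alone, 4 with array weights, 0 without the Spink8 arrays, 0 with the array set as a block and 0 to 2 with single arrays left out. Homozygous minus wildtype PTU-exposed (0) gave 0 to 2. The PTU effect in homozygous minus wildtype (4) gave 6 with array weights, 5 with the replicate block, 2 without the Spink8 arrays and 2 to 5 with single arrays left out, and that in heterozygous minus wildtype (0) gave 1 with array weights. At day 25, PTU in heterozygous (3) gave 1 to 4 with single arrays left out. Homozygous minus wildtype unexposed (1) gave 2 with array weights and 0 to 1 with single arrays left out. Heterozygous minus wildtype unexposed (3) gave 5 with array weights, 1 with the replicate block and 1 to 6 with single arrays left out. Heterozygous minus wildtype PTU-exposed (0) gave 1 with array weights, and the PTU effect in heterozygous minus wildtype (0) gave 1 with array weights and 0 to 1 with single arrays left out. The cause of these moves was not tested. In the 4 contrasts whose same-numbered arrays deviate together, the replicate block changed no member's call; over all genes it called 1303 against 660 in heterozygous minus wildtype unexposed and 750 against 0 in homozygous minus wildtype PTU-exposed, both at day 15. Signal near background limits Fhl5 and the haploid gene list at day 15 and the dim Sox5 probe sets at day 25.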
